A study of Mus musculus with 20 samples.

Results

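Transcript levels were compared between BRAF organoids and EV organoids of the mouse proximal colon, both kept in ENSW medium. The means compared came from 3 BRAF and 3 EV arrays, chosen by sample title from the 20 arrays of the series. All 6 cultures came from mice heterozygous for Braf+/LSL, an allele that makes BrafV600E once Cre has removed a stop cassette. BRAF organoids were given Cre by lentivirus and were profiled 5 months after induction, whereas EV organoids were given the lentiviral backbone without Cre. The donors were male and about 40 days old, and crypts were taken from the first 2.5 cm of the proximal colon and embedded in Matrigel. Conditioned media made up most of the stock culture medium (50% for Wnt3a, 20% for R-Spondin, 10% for Noggin), with EGF added, and each culture spent 48 h in ENSW medium before RNA was taken. The labels number the cultures of each type 1 to 3, called lines here. They do not say whether a line is 1 animal or 1 clone, or whether a BRAF and an EV line of the same number began as 1 culture. Every p-value therefore measures only the spread between the cultures in the fit. A single culture labelled wild type (WT) and the same lines in base medium, without the niche factors of stem cells, served as further points of reference. The fit held 18 arrays, because it also took in organoids whose titles add the word Base, in both media. These are called selected here, and their treatment is not described. Their spread enters every SE and p-value of the main fit.

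Colonic crypts hold stem and dividing cells at their base, which depend on Wnt and R-spondin signals, and mature absorptive colonocytes, mucus-secreting goblet cells and hormone-secreting enteroendocrine cells towards the surface. BRAF is a kinase that activates MEK and then ERK, and the V600E change keeps it active without an upstream signal. ERK output is limited by its own target genes, such as the Sprouty, Spred and Dusp families, and strong ERK output can raise cell-cycle inhibitors such as those of the Cdkn2a locus.

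Each array gave a fluorescence intensity per probe. Levels are log2 values relative to the 75th percentile of the same array, so 0 is the level of a fairly bright probe and 1 unit is a doubling. Between 59.8% and 64.7% of the spots of the 6 arrays were well above background. Across genes, which are not independent replicates, the BRAF arrays correlated with each other at r = 0.968 to 0.975, and the EV arrays at r = 0.972 to 0.988. The WT array correlated at r = 0.943 to 0.963 with BRAF arrays and 0.978 to 0.988 with EV arrays. Epithelial genes were measured on every array: Epcam, a cell-surface protein of epithelia, lay at 4.20, 3.73 and 4.22 in BRAF lines 1, 2 and 3 and at 4.86, 4.30 and 4.66 in EV lines 1, 2 and 3 (-0.56 ± 0.30, adjusted p = 0.301). Arrays with the same scan time in the file headers were taken as 1 batch, called slide here. BRAF and EV arrays shared no such batch, so slide and group cannot be told apart.

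Single lines stood apart on whole chromosomes. In BRAF line 2, the 776 genes with a probe on chromosome 10 lay at a median of 0.31 above the median array, and 81.7% of them were above it. The other chromosomes of that array lay within 0.091 of it. The same line showed a chromosome 10 median of 0.30 in base medium. In EV line 3, chromosome 19 lay at a median of 0.27 (595 genes) and the WT array showed 0.23, with 0.20 and 0.22 in base medium. BRAF line 3 had low signal from Y-linked genes: Eif2s3y lay at 1.77, 1.71 and -6.12 in BRAF lines 1, 2 and 3, against 1.27, 1.26 and 0.93 in EV lines 1, 2 and 3. The other 3 measured Y-linked genes, Ddx3y, Kdm5d and Uty, were also lowest in BRAF line 3. With all genes on chromosomes 10, 19 and Y set aside, a choice made after seeing the data, 961 genes were higher and 276 lower.

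**Figure D1:**
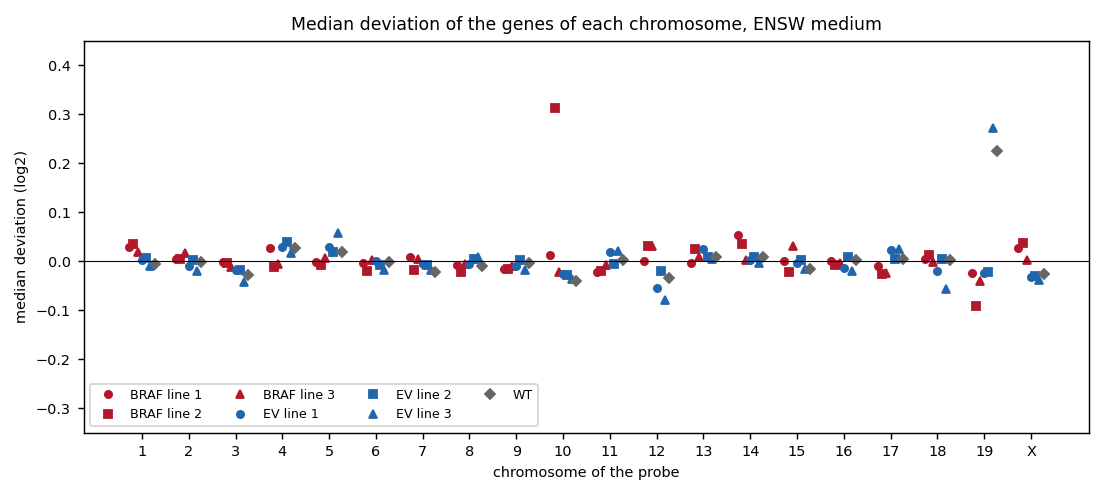
Median deviation of each array from the median array in ENSW medium (y axis, log2), over the genes whose probe lies on each chromosome (x axis). Red symbols are BRAF lines, blue symbols EV lines and the grey diamond the WT array. Chromosome 10 of BRAF line 2 (0.31) and chromosome 19 of EV line 3 (0.27) and WT (0.23) stand off the zero line.

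Of 21423 genes tested, 1332 differed between the BRAF and the EV cultures at an adjusted p under 0.05, or 6.22%. Genes that rose in BRAF organoids outnumbered those that fell, with 1029 higher (4.8%) and 303 lower (1.41%), around a median difference of 0.061 over all genes. The falls were larger: their median was -1.43 and 37 of 303 were at least 4 log2 units, whereas the rises had a median of 0.91 and 6 of 1029 reached 4. Genes that rose had a median level of -1.28 in BRAF and -2.33 in EV organoids, where the EV median over all genes was -1.25. Of the 1029, 71 were not well above background on any EV array, against 854 of all 21423 genes (3.99%). Genes that fell had a median level of -1.35 in BRAF and 0.29 in EV organoids. Of the 303, 42 were not well above background on any BRAF array, a count given without the share of all genes. At an unadjusted p under 0.05 there were 4779 genes. Dropping 1 array gave 371 genes for EV line 1, 482 for EV line 3, 389 for BRAF line 2 and 849 for BRAF line 3, and there were 774 when only these 6 arrays were fitted.

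**Figure D2:**
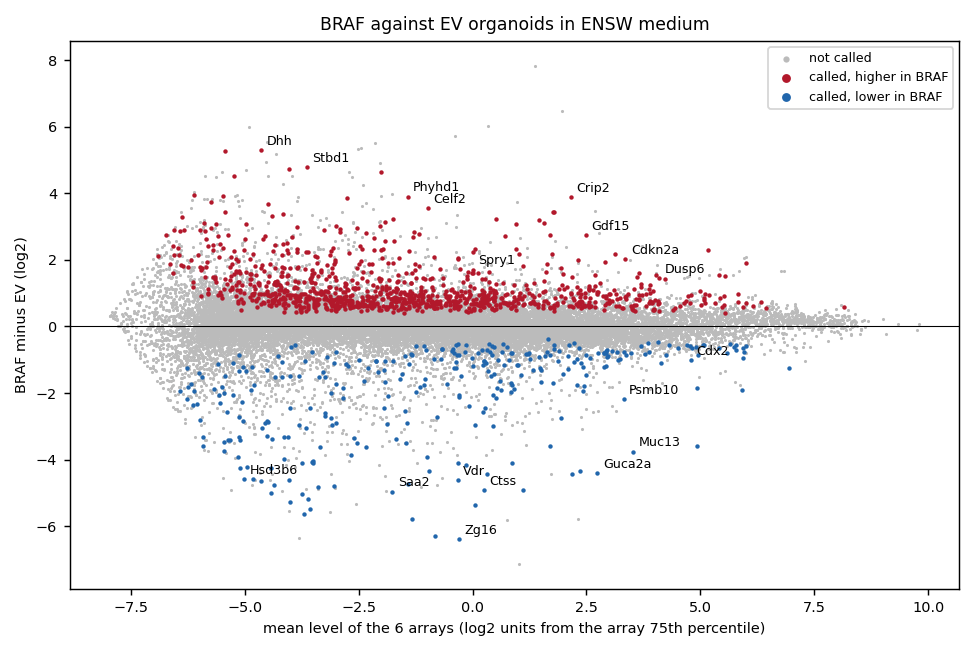
BRAF minus EV difference in ENSW medium (y axis, log2) against the mean level of the 6 arrays (x axis, log2 units from the 75th percentile of the array), 1 point per gene. The 1029 red points were called higher and the 303 blue points called lower, and the falls reach further from 0 than the rises.

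The lines of a group were not alike. BRAF line 2 lay farthest from the EV mean for 657 of the 1029 genes that rose and 179 of the 303 that fell. EV line 2 was the EV line nearest to the BRAF mean for 569 and 205 of them. On the first principal component of the 6 arrays, with 49.7% of the variance, BRAF lines 1, 2 and 3 lay at 46.9, 89.4 and 31.4 and EV lines 1, 2 and 3 at -79.6, -17.4 and -70.7. The WT array took no part in the test and lay on the EV side of the midpoint between the 2 groups for most called genes. These were 1000 of the 1029 genes that rose (97.2%) and 291 of the 303 that fell (96.0%), against 76.8% of all genes. The WT array shared its slide with EV line 1 and with no BRAF array, so slide and likeness to EV cannot be told apart.

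Braf itself was measured first. Its brightest probe (chr6:39553758-39553817, mm9) gave -2.17, -2.55 and -2.28 in BRAF lines 1, 2 and 3, against -3.28, -3.43 and -3.41 in EV lines 1, 2 and 3. The groups did not overlap, and the WT array, at -2.16, was as high as the highest BRAF line. BRAF organoids were higher by 1.04 ± 0.24 (adjusted p = 0.0234). Here and below the value after ± is the standard error (SE) of the fit, with n = 3 per group and the spread pooled over all 6 groups. Its probes measure the transcript of both alleles together. This call was lost without any 1 of the 6 arrays (adjusted p up to 0.0836). Here and below, "up to" gives the highest adjusted p over all alternatives run, which need not be the one named beside it. The alternatives named beside a gene need not be all those in which it lost its call.

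Several feedback inhibitors of ERK signalling rose in BRAF organoids. Of 15 such genes 14 were measured, 4 rose and 0 fell, where 4.8% and 1.41% of all genes did, with a median difference of 0.92. The same shares of all genes are the background for every list count below. With 1 array left out 2 to 4 rose, and without BRAF line 3 Spry3 was called lower. The median was 0.52 without BRAF line 1, 0.53 with normexp background correction and 0.50 with the authors' values. Spry1, a Sprouty inhibitor of receptor signalling to RAS, lay at 0.66, 1.32 and 0.59 in BRAF lines 1, 2 and 3, against -0.88, -0.92 and -0.74 in EV lines 1, 2 and 3. Every BRAF line was above every EV line, and Spry1 rose by 1.70 ± 0.24 (adjusted p = 0.00147). Spred1, which brings neurofibromin to RAS, lay at 0.72, 0.67 and 0.70 in BRAF lines 1, 2 and 3 and at -0.080, -0.58 and -0.21 in EV lines 1, 2 and 3. The BRAF lines were nearly equal to each other, and the rise was 0.99 ± 0.18 (adjusted p = 0.00777). Spry1 and Spred1 kept their calls in every alternative and without each array in turn.

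Dusp6, a phosphatase that acts on ERK in the cytoplasm, lay at 4.92, 5.00 and 4.53 in BRAF lines 1, 2 and 3, against 3.28, 3.44 and 3.38 in EV lines 1, 2 and 3. Groups did not overlap, and BRAF line 3 was the lowest of the BRAF lines. Its rise of 1.45 ± 0.38 (adjusted p = 0.0385) was lost without any 1 of the 6 arrays (adjusted p up to 0.142), and its probe lies on chromosome 10. Dusp7, another ERK phosphatase, rose by 0.98 ± 0.20 (adjusted p = 0.0111), which did not pass once EV line 3 was dropped (adjusted p = 0.0533). Spry2 (0.98 ± 0.29, adjusted p = 0.0634) did not pass, nor did Spry4 (adjusted p = 0.0627), which was well above background on 1 of 3 BRAF arrays and on 0 of 3 EV arrays. The measured members that lay below 0 were Lrig3 (-1.07) and Spry3 (adjusted p = 0.0707), and Spry3 had 0 of 3 BRAF and 2 of 3 EV arrays well above background.

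Among 21 genes known as transcriptional outputs of ERK, 1 rose and 0 fell, with a median of 0.55. That count is near the 4.8% of all genes that rose. The gene that rose was Etv4, an ETS factor of the Pea3 group, at 2.97, 2.28 and 2.51 in BRAF lines 1, 2 and 3, against 1.44, 0.94 and 1.65 in EV lines 1, 2 and 3. The groups did not overlap, but the rise of 1.24 ± 0.32 (adjusted p = 0.0355) was lost without any 1 of the 6 arrays (adjusted p up to 0.117). Its relatives Etv5 (1.38 ± 0.60, adjusted p = 0.186) and Etv1 (1.70 ± 0.72, adjusted p = 0.174) did not pass. Immediate early genes lay on both sides of 0, with Fos at 0.32, Egr1 at -0.24 and Jun at -0.98. Of 18 RAS, RAF, MEK and ERK genes Braf was the 1 that rose, also near the share of all genes. Of the 9 measured EGF family genes 0 were called by limma (1 at an unadjusted p under 0.05).

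All 24 listed genes known as p53 targets were measured, and 7 rose, where 4.8% of all genes did. Of the 24, 0 fell and 23 lay above 0, with a median of 0.92. Fas, a death receptor, was the 1 below 0 (-0.83 ± 0.81, adjusted p = 0.601). Gdf15, a stress cytokine, lay at 3.71, 4.16 and 3.69 in BRAF lines 1, 2 and 3, against 1.47, 0.52 and 1.33 in EV lines 1, 2 and 3. The lowest BRAF line was more than 2 units above the highest EV line, and Gdf15 rose by 2.75 ± 0.50 (adjusted p = 0.00638). Eda2r, a receptor of the TNF receptor family, lay at -0.45, -0.36 and -0.43 in BRAF lines 1, 2 and 3 and at -1.98, -2.23 and -2.10 in EV lines 1, 2 and 3. This was a rise of 1.69 ± 0.20 (adjusted p = 0.000667) with no overlap, and both calls held in every alternative and without each array. Zmat3, an RNA-binding protein, rose by 1.23 ± 0.22 (adjusted p = 0.00626) and Rrm2b, a ribonucleotide reductase subunit, by 1.28 ± 0.23 (adjusted p = 0.00574), with 1 of 3 EV arrays well above background for Rrm2b. Zmat3 lost its call when only the 6 arrays were fitted (up to 0.0571) and Rrm2b with normexp background correction or the authors' values (up to 0.12). Phlda3, Plk2 and Mdm2 completed the 7, with rises of 1.27, 1.30 and 0.98. Mdm2, the ligase that degrades p53, lost its call without any 1 of the 6 arrays (adjusted p up to 0.18), and its probe lies on chromosome 10. Phlda3 lost its call without BRAF line 2, BRAF line 3 or EV line 1 (up to 0.0761), and Plk2 without BRAF line 1 or 2 or EV line 1 or 3 (up to 0.104). Between 4 and 6 of the 24 genes were called when 1 array was left out. Cdkn1a, which encodes p21, did not pass (0.31 ± 0.45, adjusted p = 0.741).

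Cdkn2a, which encodes the cell-cycle inhibitors p16Ink4a and p19Arf, lay at 5.13, 3.83 and 4.15 in BRAF lines 1, 2 and 3, against 2.09, 2.17 and 2.76 in EV lines 1, 2 and 3. All BRAF lines were above all EV lines, by 2.03 ± 0.48 (adjusted p = 0.0252), and the call was lost without BRAF line 1 or any EV line (up to 0.105). Its neighbour Cdkn2b lay at a difference of 0.44 ± 0.43, adjusted p = 0.599. Of the 11 measured genes of the senescence list Cdkn2a was the 1 that passed. Cxcl1, a chemokine of that list with 2 of 3 EV arrays well above background, had a larger difference that did not pass (3.11 ± 0.97, adjusted p = 0.0717).

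The 15 largest rises with no overlap and signal in both groups were in genes of varied function. Stbd1, which anchors glycogen to membranes, lay at 0.53, -2.68 and -1.56 in BRAF lines 1, 2 and 3, against -4.87, -6.67 and -6.54 in EV lines 1, 2 and 3, a rise of 4.79 ± 0.89 (adjusted p = 0.00736). The EV lines overlapped no BRAF line, although BRAF lines 1 and 2 differed by over 3 units and only 1 EV array was well above background, and the call was lost when only the 6 arrays were fitted (adjusted p = 0.0521). Phyhd1, a dioxygenase-like protein, was tighter, at 0.51, 0.66 and 0.41 in BRAF lines 1, 2 and 3 and -3.43, -3.10 and -3.60 in EV lines 1, 2 and 3, and rose by 3.90 ± 0.63 (adjusted p = 0.00358). Celf2, an RNA-binding regulator of splicing, lay at 0.064, 1.14 and 1.20 in BRAF lines 1, 2 and 3 and at -3.67, -1.86 and -2.71 in EV lines 1, 2 and 3. It rose by 3.55 ± 0.48 (adjusted p = 0.00147), and its 3 probes all pointed the same way. Syne3, which links the nucleus to the cytoskeleton, rose by 3.85 ± 0.69 (adjusted p = 0.0059). Irs1, the adaptor of insulin and IGF receptors, rose by 3.02 ± 0.48 (adjusted p = 0.00317). The tubulin gene Tubb6 rose by 3.08 ± 0.49 (adjusted p = 0.00321) and the adhesion gene Kirrel by 2.93 ± 0.45 (adjusted p = 0.00269). Cdk14, a cyclin-dependent kinase that acts in Wnt receptor signalling, rose by 2.83 ± 0.41 (adjusted p = 0.00203). These genes, other than Stbd1, held their calls in every alternative and without each array, as did the ribosomal pseudogene Rpl26-ps2 (2.85 ± 0.37, adjusted p = 0.00105). The other 6 of the 15 did not. Gm4610 rose by 4.64 ± 0.98 (adjusted p = 0.0151), lost without BRAF line 2, EV line 1 or EV line 3 (up to 0.0848), and Adgrl3, an adhesion receptor with 1 of 3 EV arrays well above background, by 3.31 ± 0.60 (adjusted p = 0.00638), lost with normexp or the authors' values (up to 0.0628). Cysrt1 rose by 3.23 ± 0.70 (adjusted p = 0.0171), lost without BRAF line 2 or 3 or EV line 1 (up to 0.0903). Spata6 rose by 3.22 ± 0.64 (adjusted p = 0.0103) and Spns2, a sphingolipid transporter, by 3.20 ± 0.63 (adjusted p = 0.00976), both lost without EV line 1 and Spata6 also without EV line 3 (up to 0.055 and 0.058). Crip2, a LIM domain protein, had a large difference (3.89 ± 1.05, adjusted p = 0.0435) that was lost without any 1 array (up to 0.176).

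Some genes with smaller but very even differences had the lowest p-values. Prh1, a proline-rich secreted protein, lay at 0.63, 0.93 and 0.89 in BRAF lines 1, 2 and 3, against -0.75, -0.73 and -0.90 in EV lines 1, 2 and 3, a rise of 1.61 ± 0.14 (adjusted p = 0.000105). Kcnk13, a potassium channel, lay at -1.43, -1.27 and -1.38 in BRAF lines 1, 2 and 3, against -2.59, -2.33 and -2.43 in EV lines 1, 2 and 3. The lines of each group lay close together, and Kcnk13 rose by 1.09 ± 0.12 (adjusted p = 0.00037). Genes seen in BRAF organoids and not well above background on any EV array included Dhh, the Desert hedgehog ligand. Dhh lay at -0.21, -3.43 and -2.35 in BRAF lines 1, 2 and 3, against -7.94, -7.57 and -6.38 in EV lines 1, 2 and 3, and was at least 14.0-fold higher (adjusted p = 0.00702). Such a bound sets the BRAF mean against the lowest signal that an array can tell from background. H60b, a ligand of the NKG2D receptor of natural killer cells, was at least 2.94-fold higher (adjusted p = 0.00466), and Lyar, a nucleolar protein, at least 3.28-fold (adjusted p = 0.00405). Both of these calls were lost with normexp background correction (adjusted p up to 0.0574 and 0.0587).

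**Figure D3:**
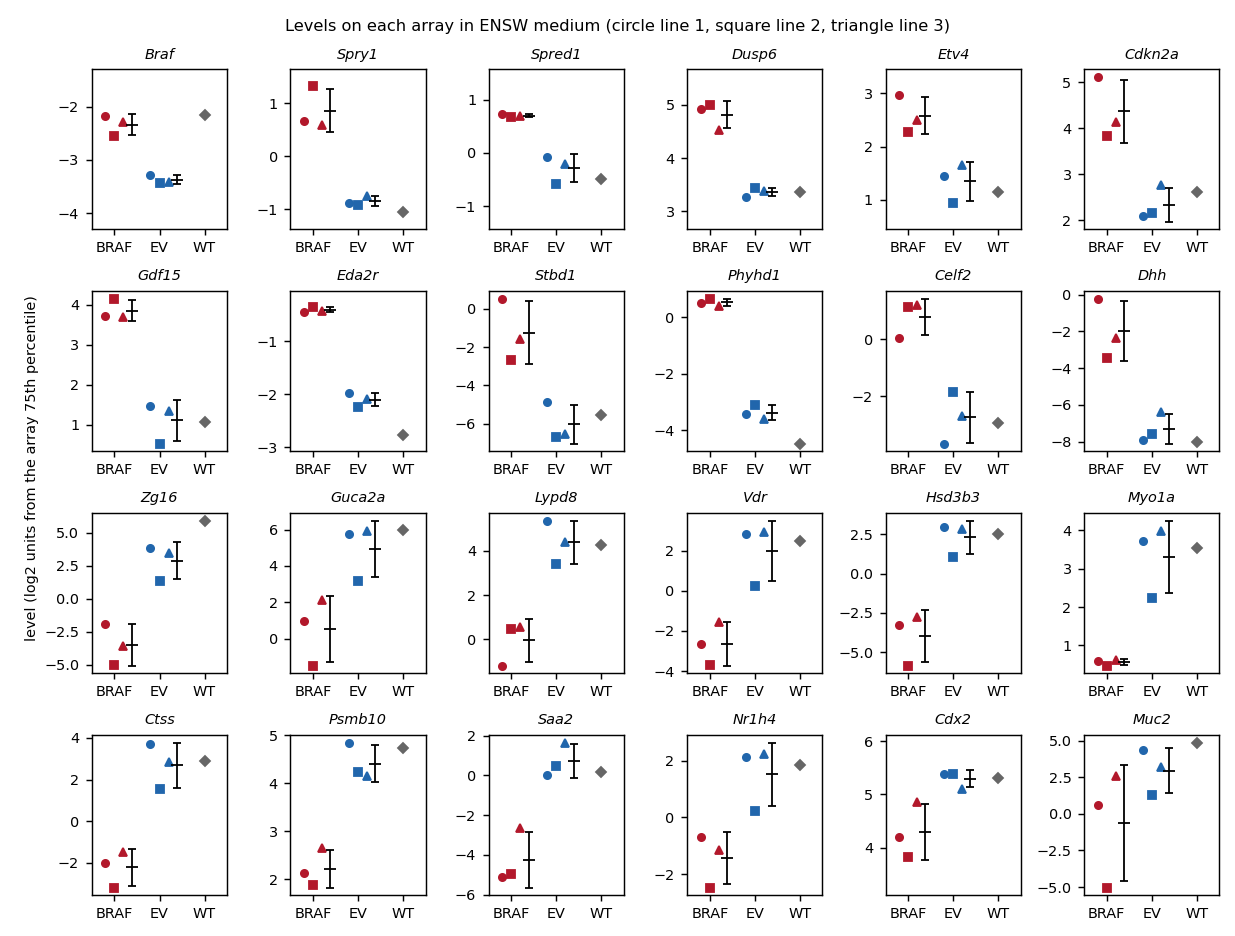
Levels of 24 genes (y axes, log2 units from the 75th percentile of the array) on each BRAF, EV and WT array in ENSW medium. Circles, squares and triangles are lines 1, 2 and 3, and black bars are the mean ± SD of 3 arrays. Apart from Muc2, where BRAF line 3 lies above EV line 2, the BRAF and EV lines of these genes do not overlap.

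Several genes of absorptive colonocytes fell. Of 32 listed genes 26 were measured, 9 fell and 0 rose, where 1.41% and 4.8% of all genes did, with a median of -2.58. Fewer cells of a type and less RNA per cell cannot be told apart in such bulk samples. Guca2a, the guanylin peptide that drives fluid secretion, lay at 0.97, -1.47 and 2.11 in BRAF lines 1, 2 and 3, against 5.73, 3.15 and 5.94 in EV lines 1, 2 and 3. EV line 2 was the lowest EV line and still above every BRAF line, and Guca2a fell by 4.40 ± 0.81 (adjusted p = 0.00678), a call lost when only the 6 arrays were fitted (up to 0.0827). Lypd8, which keeps motile bacteria off the epithelium, lay at -1.18, 0.47 and 0.58 in BRAF lines 1, 2 and 3, against 5.37, 3.42 and 4.39 in EV lines 1, 2 and 3, and fell by 4.44 ± 0.71 (adjusted p = 0.0032). Ceacam20, a protein of the microvilli, fell by 2.71 ± 0.44 (adjusted p = 0.00371) and Saa1, an acute phase protein, by 2.57 ± 0.39 (adjusted p = 0.0023). Slc26a3, the chloride and bicarbonate exchanger, was at -7.20, -6.77 and -5.60 in BRAF lines 1, 2 and 3, none well above background, against 0.80, -3.87 and 0.40 in EV lines 1, 2 and 3. This was at least 22.9-fold lower (adjusted p = 0.00736), and lost with normexp background correction or when only the 6 arrays were fitted (adjusted p up to 0.106).

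Car1, a carbonic anhydrase, lay at 3.52, 2.22 and 3.68 in BRAF lines 1, 2 and 3, against 7.49, 4.87 and 7.79 in EV lines 1, 2 and 3. All BRAF lines were below all EV lines, and the fall of 3.58 ± 0.91 (adjusted p = 0.033) did not pass once EV line 1 or 3, or any of the BRAF lines, was dropped (up to 0.143). The water channel gene Aqp8 lay at -1.74, -1.80 and -2.65 in BRAF lines 1, 2 and 3, against 3.74, -2.96 and 2.56 in EV lines 1, 2 and 3. Here EV line 2 lay below every BRAF line and the difference did not pass (-3.17 ± 1.63, adjusted p = 0.271). Krt20, a keratin of surface cells (-2.76 ± 1.17, adjusted p = 0.175), and Fabp2, a fatty acid binding protein (-2.88 ± 0.93, adjusted p = 0.0823), also missed the threshold, with overlapping groups. The sodium and proton exchanger Slc9a3, not well above background on any BRAF array, was at least 28.8-fold lower without passing (adjusted p = 0.0533). Of the 26 genes 4 lay above 0. The largest of these differences was in Car4, a membrane carbonic anhydrase, at 4.30, 4.59 and 4.51 in BRAF lines 1, 2 and 3, against 3.62, 3.71 and 3.75 in EV lines 1, 2 and 3. All BRAF lines were above all EV lines, the difference did not pass (0.77 ± 0.22, adjusted p = 0.0562), and the other probe of Car4 pointed the other way. The list median was -1.48 with normexp. Between 6 and 12 genes of the list fell when 1 of the 6 arrays was left out, 12 without EV line 2. When only the 6 arrays were fitted, 4 fell and 1 rose. The summed level of the list was 6.67 to 7.45 on BRAF arrays and 7.55 to 8.94 on EV arrays, and EV line 2 was the lowest EV array.

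In the brush border list 4 of 23 measured genes fell and 0 rose, where 1.41% and 4.8% of all genes did. The list median was -1.82, or -1.77 with genes below background in 1 group set to their bound. The median was -0.77 without EV line 3, -0.77 with the authors' values and -0.69 with normexp, and 1 gene fell without BRAF line 2 or EV line 3. Myo1a, the motor protein that ties microvillar actin to the membrane, lay at 0.59, 0.48 and 0.62 in BRAF lines 1, 2 and 3, against 3.71, 2.24 and 3.99 in EV lines 1, 2 and 3, and fell by 2.75 ± 0.55 (adjusted p = 0.011). The BRAF lines were nearly equal while the EV lines were spread out, its probe lies on chromosome 10, and the call was lost without BRAF line 2 or EV line 1 or 3 (up to 0.0604). Muc13, a membrane mucin, lay at 1.43, -0.35 and 3.88 in BRAF lines 1, 2 and 3, against 5.73, 4.77 and 5.73 in EV lines 1, 2 and 3. Alpi, the intestinal alkaline phosphatase, lay at -5.26, -6.41 and -5.43 in BRAF lines 1, 2 and 3, against -3.03, -3.37 and -0.76 in EV lines 1, 2 and 3. Neither gene's groups overlapped, 1 of 3 BRAF arrays was well above background for Alpi, and the falls were 3.76 ± 0.91 (adjusted p = 0.0273) and 3.31 ± 0.71 (adjusted p = 0.0154). Muc13 lost its call without BRAF line 1 or 2 or EV line 1 or 3 (up to 0.125), and Alpi without BRAF line 2 or EV line 3 and with the authors' values or normexp (up to 0.294).

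Promoter sequences of genes that fell are shown because the window of 250 bases before to 50 bases after a start site holds, in some of them, the sequence bound by HNF4 or GATA factors, regulators of mature enterocyte genes. The stretches are from RefSeq on GRCm38.p6, read 5′ to 3′ on the strand of the gene, and capitals mark the match in either orientation, with up to 60 bases on each side, ending at the start site or the edge of the window. In Muc13 (chr16:33794243-33794371, + strand, 1 of 2 listed start sites) the HNF4 word began 186 bases before the start site.
Muc13: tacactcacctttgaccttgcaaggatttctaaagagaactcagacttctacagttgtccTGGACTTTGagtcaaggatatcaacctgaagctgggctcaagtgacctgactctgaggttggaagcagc
In Alpi (chr1:87101607-87101685, - strand) the HNF4 word began 19 bases before the start site.
Alpi: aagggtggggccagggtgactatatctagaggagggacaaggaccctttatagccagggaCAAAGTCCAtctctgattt
In Guca2a (chr4:119637527-119637653, + strand) the GATA word was present at 2 places, the first 145 bases before the start site.
Guca2a: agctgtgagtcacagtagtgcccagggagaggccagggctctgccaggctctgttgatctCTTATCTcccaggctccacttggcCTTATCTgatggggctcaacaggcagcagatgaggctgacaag
In Hsd3b3 (chr3:98763304-98763378, - strand, 1 of 2 listed start sites), a steroid enzyme gene described below, the GATA word began 242 bases before the start site.
Hsd3b3: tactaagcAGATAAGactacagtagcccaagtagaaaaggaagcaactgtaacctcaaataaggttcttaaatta

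Words were searched on both strands in the windows of the 12571 genes that matched by symbol, 461 of them higher and 212 lower in BRAF organoids. The HNF4 word CAAAGTCCA was in 2.36% of the genes that fell (5 genes, Hsd3b3, Muc13, Alpi, Cyp2c68 and Ece1), 0.217% of those that rose and 0.557% of all. The GATA word AGATAAG was in 5.66% of the genes that fell, 2.82% of those that rose and 2.62% of all. The AP-1 words TGAGTCA and TGACTCA, which spell 1 site on its 2 strands, were in 7.08%, 6.94% and 4.91%. The CDX words TTTATTG and TTTATGG were in 7.08%, 7.16% and 5.74%. The ETS word CCGGAAG was in 9.43% of the genes that fell, 7.38% of those that rose and 16.9% of all. These shares were not tested, and a match is not evidence of binding.

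Fat metabolism genes fell in part. Of 24 measured genes of the lipid and PPAR list 5 fell and 0 rose, where 1.41% and 4.8% of all genes did. The list median was -0.48 (-0.45 with bounds). Ehhadh, an enzyme of peroxisomal fatty acid oxidation, lay at -3.90, -4.80 and -4.90 in BRAF lines 1, 2 and 3, against -1.56, -2.72 and -1.56 in EV lines 1, 2 and 3. All BRAF lines were below all EV lines, and the fall of 2.59 ± 0.47 (adjusted p = 0.00638) was lost with normexp background correction (adjusted p = 0.0837). Cpt1a, which admits fatty acids to mitochondria, fell by 1.15 ± 0.30 (adjusted p = 0.0381) and the mitochondrial dehydrogenase gene Acadvl by 0.66 ± 0.15 (adjusted p = 0.0232). Both lost the call without BRAF line 1 or 2 or EV line 1 or 3 (up to 0.156 and 0.116), as the list fell to 1 called gene without BRAF line 2, EV line 1 or EV line 3.

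Steroid and bile acid genes were among those that fell. Hsd3b3 and Hsd3b6, named for the size or p of their change, are not in the bile acid and steroid list. Hsd3b3, a 3-beta-hydroxysteroid dehydrogenase with 2 of 3 BRAF arrays well above background, lay at -3.29, -5.85 and -2.77 in BRAF lines 1, 2 and 3, against 2.98, 1.07 and 2.88 in EV lines 1, 2 and 3. BRAF line 2 was the lowest and EV line 2 the lowest of its group, and Hsd3b3 fell by 6.28 ± 0.72 (adjusted p = 0.000489). Its paralog Hsd3b6, with 0 of 3 BRAF arrays well above background, was at -7.49, -6.98 and -7.46 in BRAF lines 1, 2 and 3 and -1.85, -3.96 and -2.35 in EV lines 1, 2 and 3, at least 6.76-fold lower (adjusted p = 0.000174, and 0.113 with normexp). Probes of such near-identical paralogs can share signal. Nr1h4, the bile acid receptor FXR, lay at -0.69, -2.46 and -1.14 in BRAF lines 1, 2 and 3, against 2.11, 0.24 and 2.22 in EV lines 1, 2 and 3, and fell by 2.96 ± 0.62 (adjusted p = 0.0137). Groups did not overlap, its probe lies on chromosome 10, and the call was lost without BRAF line 2 or EV line 1 or 3 (up to 0.0785). Slc51b, a subunit of the bile acid exporter, was at least 13.4-fold lower (adjusted p = 0.00626, up to 0.158 with normexp). Hsd11b2, which inactivates corticosteroids and was well above background on 1 of 3 BRAF arrays, fell by 3.38 ± 0.91 (adjusted p = 0.0435), although BRAF line 3 lay above EV line 2, and lost the call without BRAF line 1 or 2 or EV line 1 or 3 (up to 0.22). Hsd17b2, which inactivates sex steroids, fell by 1.69 ± 0.32 (adjusted p = 0.00856), lost without EV line 1 (up to 0.0504). Of the 12 measured genes of the list these 4 (Nr1h4, Slc51b, Hsd11b2 and Hsd17b2) fell and 0 rose, with a median of -1.39, -0.66 with normexp and -2.16 with the mean of all probes. The count was 1 without EV line 1 and 0 when only the 6 arrays were fitted.

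Among 30 measured genes of xenobiotic metabolism 2 fell and 0 rose, although the median was -1.98 (-0.94 with normexp). Cyp2c55, a cytochrome P450 of the colon, lay at -1.04, -3.44 and 0.42 in BRAF lines 1, 2 and 3, against 4.32, 1.54 and 4.84 in EV lines 1, 2 and 3, and fell by 4.92 ± 1.24 (adjusted p = 0.0325). Its groups did not overlap, its probe lies on chromosome 19, and the call was lost without BRAF line 1 or 2 or EV line 1 or 3 (up to 0.15). Cyp4f14, a fatty acid hydroxylase, fell by 4.11 ± 0.83 (adjusted p = 0.0114), lost without BRAF line 2 or EV line 1 or 3 (up to 0.0755). The efflux pump Abcg2 (-3.12 ± 0.89, adjusted p = 0.0525) and the alcohol dehydrogenase Adh1 (-4.56 ± 1.89, adjusted p = 0.166), with 2 of 3 BRAF arrays well above background for Adh1, did not pass. Without EV line 2, 6 genes of the list fell, and without BRAF line 2, EV line 1 or EV line 3 none passed.

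Goblet cell genes had a low median, -2.02 (-1.99 with bounds), but 2 of 21 measured genes fell and 0 rose, where 1.41% and 4.8% of all genes did. That median was -0.70 without BRAF line 2, -3.34 without BRAF line 3 and -0.86 with normexp. Zg16, a lectin of the mucus layer, lay at -1.88, -5.00 and -3.61 in BRAF lines 1, 2 and 3, against 3.87, 1.32 and 3.48 in EV lines 1, 2 and 3. Every BRAF line was more than 3 units below the lowest EV line, and the fall of 6.38 ± 0.91 (adjusted p = 0.00178) held in every alternative. Clca1, which processes mucus, fell by 4.15 ± 0.81 (adjusted p = 0.00973), lost without BRAF line 2 or EV line 1 (up to 0.0582). Muc2, the main gel-forming mucin, lay at 0.58, -5.03 and 2.61 in BRAF lines 1, 2 and 3, against 4.34, 1.29 and 3.21 in EV lines 1, 2 and 3. BRAF line 2 was far below the rest and BRAF line 3 above EV line 2, so the groups overlapped and the difference did not pass (-3.56 ± 1.97, adjusted p = 0.313). Spdef, a goblet cell transcription factor, was also lowest in BRAF line 2, at 2.30, -3.08 and 3.70 in BRAF lines 1, 2 and 3 and 3.98, 1.07 and 3.63 in EV lines 1, 2 and 3 (-1.92 ± 1.76, adjusted p = 0.575). Atoh1, which sets the secretory fate, lay at -2.38, -7.63 and -0.62 in BRAF lines 1, 2 and 3, against -0.068, -2.99 and -0.31 in EV lines 1, 2 and 3, again lowest in BRAF line 2, with 2 of 3 BRAF arrays well above background. The summed goblet level was 4.004 to 7.40 on BRAF arrays and 5.69 to 8.18 on EV arrays.

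Hormone genes of enteroendocrine cells had a median of -1.26 (-1.20 with bounds), and 0 of 20 measured genes were called by limma (4 at an unadjusted p under 0.05). The median was -0.47 without BRAF line 2, -0.56 without EV line 1, -2.41 without EV line 2, -0.57 with the authors' values and -0.084 with normexp. Chgb, a granin of hormone granules, lay at 2.74, -3.50 and 2.81 in BRAF lines 1, 2 and 3, against 4.81, -0.33 and 3.56 in EV lines 1, 2 and 3. Line 2 was the lowest in both groups and the groups overlapped. The glucagon gene Gcg lay at -3.96 ± 1.29, adjusted p = 0.0824, with 1 of 3 BRAF arrays well above background, and Insl5, on none of them, at an adjusted p of 0.0592. Of 11 measured tuft cell genes 1 rose, where 4.8% of all genes did. It was the leukotriene synthase Ltc4s (0.78 ± 0.18, adjusted p = 0.0224), which did not pass after EV line 1 or 3 was dropped, nor after BRAF line 2 or 3 (up to 0.103).

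**Figure D4:**
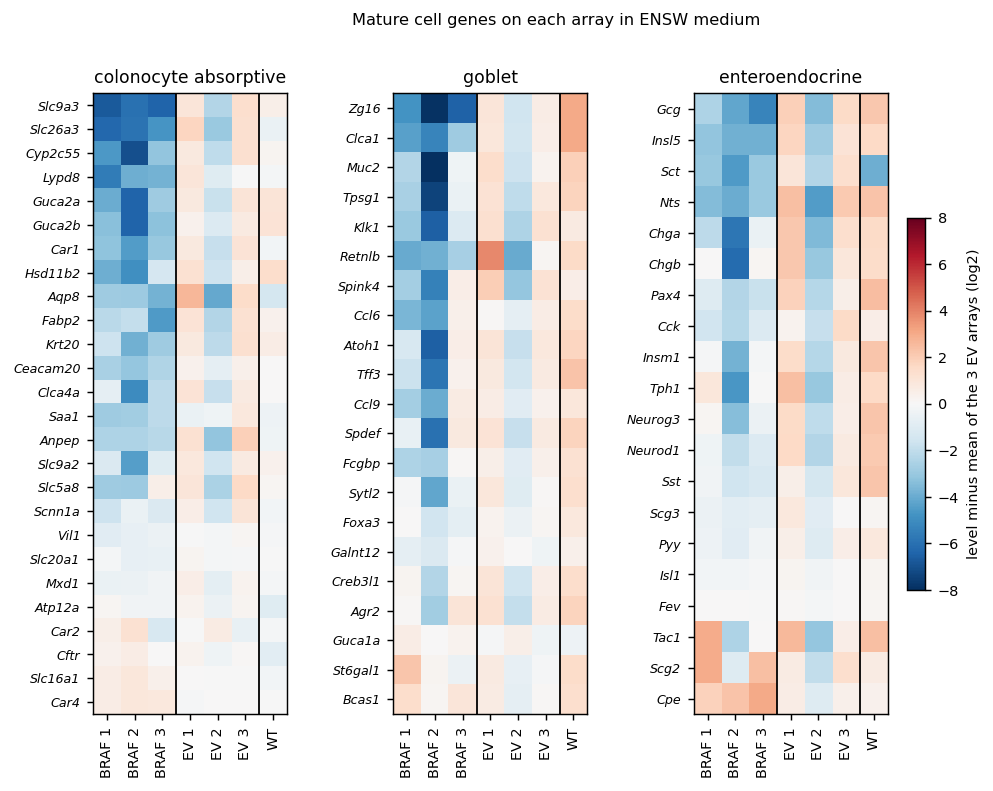
Levels of measured colonocyte, goblet and enteroendocrine genes on each BRAF, EV and WT array in ENSW medium, shown as the difference from the mean of the 3 EV arrays (colour, log2; red higher, blue lower). Rows are ordered by the difference between groups. Most colonocyte genes are low in all BRAF lines. Many goblet and enteroendocrine genes are lowest in BRAF line 2 and lower in EV line 2 than in the other EV lines. Among colonocyte genes Guca2a and Car1 share both traits, while Aqp8 and Lypd8 are lowest of the EV lines in EV line 2 but not lowest in BRAF line 2.

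Among genes well above background on all 6 arrays, those with the widest spread among BRAF lines were Ly6e, Muc2, Rab15, Spdef and Cdx1, all lowest in line 2. Cdx1, a homeobox factor of the intestine, lay at 2.01, -4.70 and 0.98 in BRAF lines 1, 2 and 3, against 5.46, 4.93 and 5.25 in EV lines 1, 2 and 3. All BRAF lines were below all EV lines, but the spread left the difference short of the threshold (-5.78 ± 1.91, adjusted p = 0.0873). Ly6e, a membrane protein, lay at 5.03, -3.53 and 4.94 in BRAF lines 1, 2 and 3, against 2.34, 4.89 and 1.72 in EV lines 1, 2 and 3, with overlap and no call. Rab15, a trafficking GTPase, lay at 1.94, -3.75 and 3.23 in BRAF lines 1, 2 and 3, against 3.47, 1.35 and 3.96 in EV lines 1, 2 and 3, also with overlap.

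Among 26 measured factors of intestinal identity 4 fell and 0 rose, where 1.41% and 4.8% of all genes did (median -0.46, and -0.72 without EV line 2). Vdr, the vitamin D receptor, lay at -2.65, -3.71 and -1.53 in BRAF lines 1, 2 and 3, against 2.82, 0.24 and 2.91 in EV lines 1, 2 and 3. The groups did not overlap and Vdr fell by 4.62 ± 0.74 (adjusted p = 0.00321), a call lost when only the 6 arrays were fitted (up to 0.0527). Cdx2, the homeobox factor that specifies intestine, lay at 4.19, 3.82 and 4.85 in BRAF lines 1, 2 and 3, against 5.39, 5.39 and 5.11 in EV lines 1, 2 and 3, and fell by 1.01 ± 0.25 (adjusted p = 0.029). EV lines were nearly equal, and the call was lost without BRAF line 1 or 2 or any EV line (up to 0.137). Nr5a2, also called LRH-1, fell by 2.14 ± 0.43 (adjusted p = 0.0118), lost without EV line 1 or 3 (up to 0.0749); Nr1h4 was the fourth. Hnf4a, a nuclear receptor of enterocytes, lay at 4.70, 4.02 and 4.89 in BRAF lines 1, 2 and 3 and 5.30, 4.94 and 5.49 in EV lines 1, 2 and 3 and did not pass (-0.71 ± 0.62, adjusted p = 0.558). Its SE also pools the selected arrays, which lay at 0.30, 3.01 and 2.10 in ENSW medium. Without EV line 1 or EV line 3, 1 gene of the list passed, and 2 others rose with quantile normalization or the authors' values.

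Of 21 measured antimicrobial and acute phase genes 4 fell and 1 rose, where 1.41% and 4.8% of all genes did, with a median of -1.40 (-1.08 with bounds, -0.12 with normexp). Saa2, an acute phase protein, lay at -5.12, -4.99 and -2.64 in BRAF lines 1, 2 and 3, against 0.018, 0.48 and 1.66 in EV lines 1, 2 and 3, and fell by 4.97 ± 0.60 (adjusted p = 0.000667). Saa3, well above background on 1 of 3 BRAF arrays, fell by 4.80 ± 0.76 (adjusted p = 0.00317), and all 3 Saa genes kept the call in every alternative. Pigr, which carries IgA across the epithelium, fell by 1.08 ± 0.27 (adjusted p = 0.0296), lost without EV line 1 or any BRAF line (up to 0.119). Nos2, the inducible nitric oxide synthase, rose by 0.79 ± 0.14 (adjusted p = 0.00638). Between 3 and 7 genes fell when 1 array was left out.

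Of 17 measured MHC and antigen presentation genes 1 fell. It was Psmb10, a catalytic subunit of the immunoproteasome, at 2.13, 1.89 and 2.66 in BRAF lines 1, 2 and 3, against 4.85, 4.24 and 4.15 in EV lines 1, 2 and 3 (-2.19 ± 0.26, adjusted p = 0.000617). The other catalytic subunits, Psmb8 (adjusted p = 0.076, with no BRAF array well above background) and Psmb9 (-1.59 ± 0.57, adjusted p = 0.114), did not pass, and the class I genes H2-K1 and H2-D1 lay at -0.44 and -0.37. Ctss, a protease of antigen processing, lay at -1.99, -3.18 and -1.47 in BRAF lines 1, 2 and 3, against 3.69, 1.55 and 2.86 in EV lines 1, 2 and 3. Every BRAF line was at least 3 units below every EV line, and the fall of 4.91 ± 0.54 (adjusted p = 0.00037) held in every alternative. Batf2, a transcription factor induced by interferon, fell by 3.38 ± 0.41 (adjusted p = 0.000733), and its probe lies on chromosome 19. The interferon response list had 0 of 24 genes called by limma (2 at an unadjusted p under 0.05) and a median of -0.095, which ran from -1.13 without BRAF line 2 to 0.57 without EV line 1, and was above 0 without BRAF line 1 or 3 and with normexp as well. Other large falls were in Pla2g10, a secreted phospholipase (-5.18, adjusted p = 0.00213), Apol10a, of the apolipoprotein L family (-5.78, adjusted p = 0.00166), and Aoc1, which degrades histamine (-5.35, adjusted p = 0.0417). Of the 3 BRAF arrays 1 was well above background for Pla2g10 and for Apol10a and 2 for Aoc1. Aoc1 lost its call without any EV line or BRAF line 1 or 2 (up to 0.173).

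Stem cell and Wnt genes were not called by limma. Of 18 measured crypt stem genes 0 passed (1 at an unadjusted p under 0.05), with a median of 0.090. Of 23 Wnt feedback and target genes 0 passed (4 at an unadjusted p under 0.05), with a median of 0.30 (0.19 with the authors' values). Lgr5, the R-spondin receptor of stem cells, lay at 0.92, 0.33 and 1.51 in BRAF lines 1, 2 and 3, against 0.79, -1.95 and 0.76 in EV lines 1, 2 and 3. EV line 2 was far below the other 5, among which the groups overlapped. The Lgr5 probe lies on chromosome 10, and the difference was 1.05 ± 2.42, adjusted p = 0.849. That SE pools all 6 groups, and the selected arrays in ENSW medium lay at 1.56, -7.63 and -1.70. Axin2, a feedback inhibitor of Wnt signalling, lay at -1.67, -2.25 and -2.65 in BRAF lines 1, 2 and 3 and at -2.32, -2.33 and -1.99 in EV lines 1, 2 and 3, with overlap. Of 31 measured proliferation genes 1 rose, the mitotic kinase Aurkb (1.98 ± 0.47, adjusted p = 0.0244), and 27 of 31 lay below 0, with a median of -0.42 (-0.11 without BRAF line 1). Aurkb, well above background on 2 of 3 BRAF arrays and 1 of 3 EV arrays, lost its call without any EV line or BRAF line 2 or 3 (up to 0.125). Mki67, a marker of cycling cells, lay at 3.00, 3.76 and 3.63 in BRAF lines 1, 2 and 3, against 4.14, 4.51 and 3.83 in EV lines 1, 2 and 3 (-0.70 ± 0.65, adjusted p = 0.579).

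Single genes of several signalling lists rose, at shares that for the Notch, mesenchymal and fetal-like lists were near the 4.8% of all genes that rose. Beside Dhh, described above, the hedgehog ligand Ihh lay at -2.67 ± 1.44, adjusted p = 0.298. In the BMP and TGF-beta list 3 of 22 rose and 0 fell (median 0.20, 0.024 without BRAF line 1 and 0.36 without EV line 3): the BMP antagonist Nog (1.08), the target Id2 (1.73) and the receptor Acvrl1 (0.75). Without EV line 1, 2 or 3 or BRAF line 2, none of the 3 passed (adjusted p up to 0.167, 0.167 and 0.115). Of 17 measured Notch genes 1 rose and 1 fell: Notch3, a Notch receptor, rose by 2.08 ± 0.53 (adjusted p = 0.0336) and Hes5, a Notch target, fell by 1.11 ± 0.30 (adjusted p = 0.0443), and neither passed after EV line 1, EV line 3, BRAF line 1 or BRAF line 3 was dropped (up to 0.133 and 0.373). Sparc, a matrix protein, lay at -2.66, -2.36 and -2.50 in BRAF lines 1, 2 and 3, against -3.97, -3.82 and -4.01 in EV lines 1, 2 and 3. It rose by 1.43 ± 0.19 (adjusted p = 0.00105) with tight groups, and was 1 of 12 measured mesenchymal and EMT genes to pass. Of 24 fetal-like and YAP genes 1 rose, Wwtr1, which encodes the YAP partner TAZ (1.60 ± 0.33, adjusted p = 0.0136; lost without BRAF line 2 or EV line 1, up to 0.0697).

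Cbx7, a reader subunit of Polycomb complex 1, was at -4.56, -3.66 and -3.78 in BRAF lines 1, 2 and 3, against -7.65, -6.51 and -6.08 in EV lines 1, 2 and 3, where no array was well above background. It was at least 3.5-fold higher (adjusted p = 0.0119), lost without BRAF line 2 or EV line 1 (up to 0.069). The median of the 24 chromatin and DNA methylation genes was -0.041, and the DNA methyltransferase genes Dnmt1 (-0.16 ± 0.23, adjusted p = 0.742) and Dnmt3b (0.54 ± 0.25, adjusted p = 0.222) did not pass. Other single list members that rose were Vegfa (1.60 ± 0.38, adjusted p = 0.0256), Il33 (1.60 ± 0.40, adjusted p = 0.0308), the gastric mucin Muc5ac (0.88 ± 0.21, adjusted p = 0.0266) and the laminin subunit Lamc1 (0.84 ± 0.19, adjusted p = 0.0227). Each of these 4 lost its call without EV line 1 and without at least 1 BRAF line (up to 0.0992, 0.141, 0.108 and 0.0985).

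**Figure D5:**
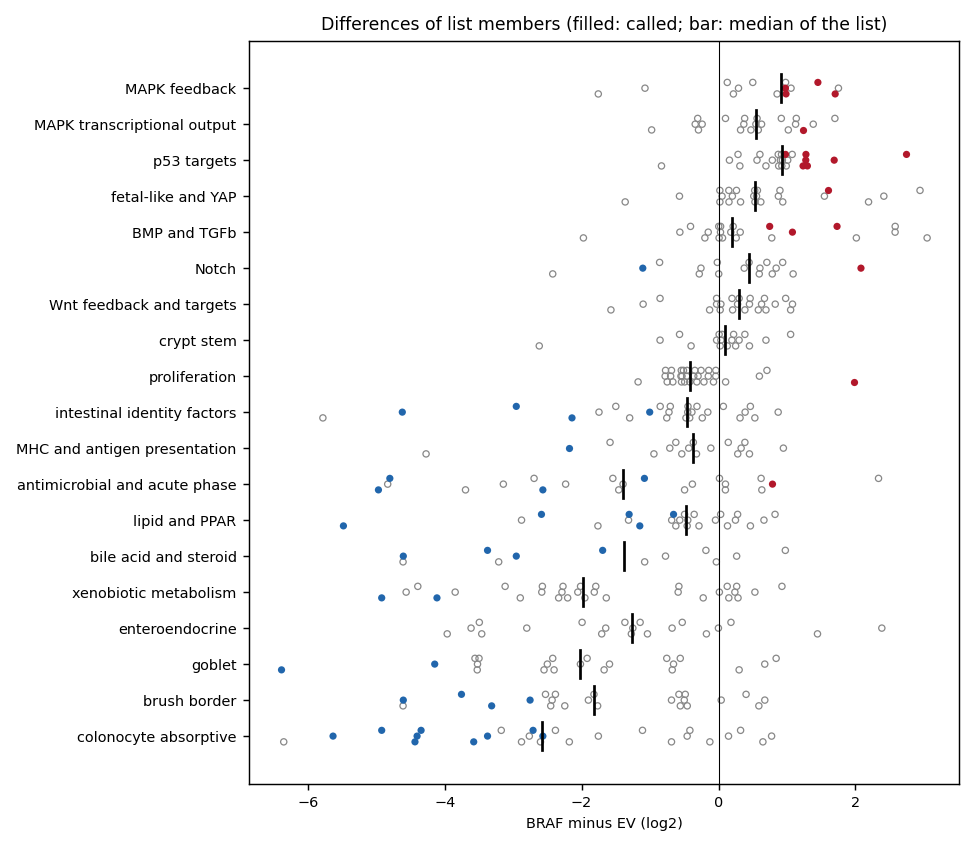
BRAF minus EV difference in ENSW medium (x axis, log2) for the measured members of 19 gene lists (rows). Filled red and blue points were called higher and lower, open points were not called, and black bars are list medians. The medians lie at 0.92 for MAPK feedback and 0.92 for p53 targets, against -2.58 for colonocyte genes.

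Markers of cells other than epithelium were looked at beside these results. Of 16 measured immune cell genes 4 rose (Csf1r, Fcer1g, Cd79a and Cd4, by 0.61, 0.76, 0.92 and 1.02), and the summed level of the list was 5.02 to 5.24 on BRAF arrays and 4.87 to 5.02 on EV arrays. The pan-leukocyte gene Ptprc lay at -0.25 ± 0.28, adjusted p = 0.649, and without BRAF line 2 none of the 4 passed. Of 7 measured fibroblast and muscle genes Pdgfrb, not well above background on any BRAF array, was at least 2.57-fold lower (adjusted p = 0.000943, and 0.741 with normexp), with the list at 2.03 to 2.38 on BRAF arrays and 1.49 to 2.71 on EV arrays. The fibroblast collagens Col1a1 and Col3a1 and the endothelial cadherin Cdh5 did not pass the filter on dim probes. Of 7 endothelial genes Kdr rose (0.70 ± 0.14, adjusted p = 0.0121), with the list at 2.30 to 2.49 on BRAF arrays and 1.64 to 1.88 on EV arrays, and of 7 neuron and glia genes Elavl4 rose (1.04 ± 0.22, adjusted p = 0.0154), with the list at -0.11 to 0.16 on BRAF arrays and -0.44 to -0.26 on EV arrays. Kdr and Elavl4 lost their calls without BRAF line 2, EV line 1 or EV line 3 (up to 0.255 and 0.0874). The small intestine and Paneth list had 1 of 13 lower, Alpi, and lay at -0.78 to 1.61 on BRAF arrays and 1.31 to 3.77 on EV arrays. Of 14 stress and RNA quality genes 0 were called by limma (4 at an unadjusted p under 0.05, median 0.17, 0.31 without BRAF line 2 and 0.099 without EV line 3), with the list at 6.88 to 8.28 on BRAF arrays and 7.26 to 7.41 on EV arrays. The part of these levels in the results was not tested.

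The same lines were also compared in base medium, on other arrays of the same cultures and within the same fit. BRAF and EV arrays shared no slide in base medium either. Calls shared by the 2 media therefore cannot be told apart from effects of culture or slide. There, 6651 genes were called between BRAF and EV organoids (31%), 3840 higher (17.9%) and 2811 lower (13.1%). Of the 1029 genes that rose in ENSW medium 682 also rose in base medium, 66.3% of the ENSW rises and 17.8% of the base rises. Of the 303 that fell in ENSW medium 235 fell in base medium, 77.6% of the ENSW falls and 8.36% of the base falls, and 1 rose. The difference between the media was itself tested: 756 genes were called (3.53%), among them 28 of the 1029 and 4 of the 303. The same lines were profiled in both media, and the count was 4238 with culture as a random block. It was 11 when only the 4 groups were fitted and 51 to 1913 with 1 array left out, highest without the base array of EV line 2 and lowest without the ENSW array of the same line. Proliferation genes differed most between the media: 26 of 31 passed this test, with median differences of -0.42 in ENSW and 3.07 in base medium. In the colonocyte, goblet, MAPK feedback and identity factor lists 0 genes passed it with limma, and 2, 1, 3 and 1 had an unadjusted p under 0.05.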

How the data were processed

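Total RNA of 20 organoid cultures was hybridised to single-colour (Cy3) Agilent arrays with probes placed on mm9, 1 array per culture and medium. Per the file headers, the deposited scanner output holds intensity per spot from Feature Extraction 10.7.3.1, and the processed signal used here is the background-subtracted intensity. A second deposited file gives log2 values for the same arrays; it ranked probes as the unsubtracted median signal did and had near equal distributions on all arrays; the submitters' processing notes name limma. The number of arrays limits the precision.

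From the processed intensity, log2 values minus the 75th percentile of each array were computed, after 48 spots with uneven signal were left out. Repeat spots were averaged per probe. A probe was kept if 3 or more of the 18 BRAF, EV and selected arrays had it well above background (26826 of 39429). Each gene was represented by its brightest probe, which gave 21423 genes, 16084 with a symbol. A member that passes this filter only through the group where it is high must differ, so counts over measured members carry no support of their own. Names came from RefSeq by accession (26581 probes), symbol (2597) or older symbol (492), and 9759 probes kept the name in the files. Group means of 6 groups of 3 arrays were fitted with limma 3.58.1 (R 4.3.3; lmFit, eBayes, 12 residual degrees of freedom), and a gene was called at an adjusted p below 0.05 (Benjamini-Hochberg, across all tested genes). Each culture entered in both media, and arrays of 1 culture correlated at 0.53, so these degrees of freedom do not all count independent arrays. With culture as a random block 1321 genes were called in ENSW medium. The code was tested on simulated data. Tables were made with pandas 2.3.3 and numpy 2.4.6, and plots with matplotlib 3.10.9, under Python 3.11.15.

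Members, gene lists and named genes were chosen with earlier results of these data known. Named genes were the 15 largest rises and falls whose groups did not overlap, the 8 smallest p per direction, up to 5 per direction below background in 1 group, up to 4 called members of each of 43 lists per direction (otherwise the 2 brightest members), the 5 smallest p per direction between media, the 5 widest ranges among BRAF lines, and fixed markers. The text prints some of them, some genes are not reported here, and other list members are named for their role. Alternatives were normexp, quantile normalization, the authors' values, no filter, the mean of all probes, only the groups compared, the line number as a block, slide or culture as a random block, and leaving out each array. Deviations of BRAF and EV arrays with the same line number correlated at 0.049, 0.21 and 0.15. Those with different line numbers correlated at -0.17 to 0.082. These values were not tested and do not settle whether lines of the same number share an origin. Lines were not paired because the labels do not say what a number marks.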

Additional observations from a re-analysis of the deposited data

Results flagged for a closer look

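The difference between BRAF and EV organoids was tested against the same difference in base medium, and 15 named genes passed. Of all 21423 genes, 756 passed (3.53%). Genes with the smallest p of this same test were put among the named genes, so their passing was built into the choice. They included Cdca7l, Ska2, Plk4, Racgap1 and Kif4, and the genes given last. For the genes at background in ENSW medium, given last, the test cannot decide. Values are the log2 difference in ENSW medium minus that in base medium, with its SE.

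The differences of 7 genes tied to cell division lay between -0.70 and 0.92 in ENSW medium, where limma called 0 of them, and between 2.50 and 4.37 in base medium. For the cell-cycle genes Mki67, Kif4, Plk4 and Racgap1 the differences between the media were Mki67 -4.15 ± 0.92 (adjusted p = 0.0339) and Kif4 -3.14 ± 0.42 (adjusted p = 0.00494), with Plk4 -2.96 ± 0.37 (adjusted p = 0.00412) and Racgap1 -3.27 ± 0.41 (adjusted p = 0.00412). Mki67, for example, lay at -0.70 in ENSW and 3.45 in base medium. Gtse1, Ska2 and Cdca7l, also tied to division, showed Gtse1 -3.45 ± 0.49 (adjusted p = 0.00757), Ska2 -2.17 ± 0.26 (adjusted p = 0.00373) and Cdca7l -2.53 ± 0.30 (adjusted p = 0.00325). Aen, a nuclease induced by p53, showed -1.45 ± 0.33 (adjusted p = 0.0369). Kcnk13 showed -0.78 ± 0.17 (adjusted p = 0.0315), and was higher in BRAF organoids in both media, by 1.09 and 1.87. Sparc showed 1.33 ± 0.26 (adjusted p = 0.0232), from 1.43 in ENSW and 0.10 in base medium.

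In 5 further genes no ENSW array of either group was well above background, so their ENSW levels are only bounds: 4931428L18Rik 4.06 ± 0.41 (adjusted p = 0.0012), Kif27 4.53 ± 0.59 (adjusted p = 0.00482) and Kynu 4.39 ± 0.58 (adjusted p = 0.00491), with Sntg1 3.01 ± 0.28 (adjusted p = 0.000967) and Cxcr5 2.67 ± 0.31 (adjusted p = 0.00325). All 5 were highest on the EV arrays in base medium. Kynu lay at -2.46, -4.80 and -3.71 in EV lines 1, 2 and 3 there, and at -7.33 or lower on every other fitted array. A gene that passes the filter on dim probes only through that group must differ between the media. The sizes and p-values of these 5 genes therefore carry no support of their own.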

How the results depend on the processing

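Counts of called genes moved with the arrays used. With 1 ENSW array left out, 371 to 1149 genes were called, 304 to 785 of them higher and 67 to 364 lower. With only the groups compared in the fit, which leaves fewer residual degrees of freedom, 774 genes were called, 591 higher and 183 lower. Beside the losses in that fit given above, further calls were lost. Falls also lost in that fit were Acadvl, Alpi, Aoc1, Car1, Cdx2, Clca1, Cpt1a, Cyp2c55, Cyp4f14, Hes5, Hsd11b2, Hsd17b2, Muc13, Nr1h4, Pigr and Slc51b. Rises also lost there were Acvrl1, Aurkb, Cdkn2a, Crip2, Elavl4, Etv4, Fcer1g, Gm4610, Id2, Kdr, Mdm2, Muc5ac, Nog, Notch3, Phlda3, Vegfa and Wwtr1. With the line number as a replicate block, 1904 were called, 1391 higher and 513 lower; the block is not a pairing, since the labels do not say what a number marks, and every other alternative kept these counts within 1.5 times. In base medium the count was 2982 with only the groups compared and 4366 to 6711 with 1 array left out. The difference between media gave 1327 genes with normexp, 336 with no filter on dim probes, 11 with only the groups compared, 1376 with the replicate block, 1387 with slide and 4238 with culture as a random block, and 51 to 1913 with 1 array left out. Of the 112 named genes called, 56 lost the call without at least 1 array, 67 in at least 1 other alternative, and 33 kept it in every alternative. Of the 224 named genes, 0 reversed direction in a called alternative. For dim genes, signal over background limits the fold to a bound. The causes of these changes were not tested.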

Other observations

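Some of the largest differences did not pass the test; these genes were picked after their values were seen. Wfdc2, a secreted protease inhibitor, lay at 5.15, 5.27 and 5.42 in BRAF lines 1, 2 and 3, against 4.99, -7.12 and -5.53 in EV lines 1, 2 and 3 (7.84 ± 2.79, adjusted p = 0.111). The BRAF lines were even and EV line 1 was nearly as high, whereas the other EV lines were near background. Rhox5, a homeobox gene of the germline, lay at 3.76, 8.69 and 3.14 in BRAF lines 1, 2 and 3, against -1.63, -1.04 and -1.11 in EV lines 1, 2 and 3 (6.46 ± 1.85, adjusted p = 0.0544). All BRAF lines were above all EV lines, and line 2 was the highest by far. Dmbt1, a mucosal defence glycoprotein, lay at -3.64, -5.07 and 1.08 in BRAF lines 1, 2 and 3, against 6.44, 2.68 and 4.62 in EV lines 1, 2 and 3 (-7.12 ± 3.21, adjusted p = 0.207), with every BRAF line below every EV line. Its SD in ENSW medium was 3.22 on BRAF, 1.88 on EV and 6.49 on selected arrays. Ctla2a, a protease inhibitor, lay at 2.75, 4.62 and 2.66 in BRAF lines 1, 2 and 3, against -3.07, -2.69 and -2.27 in EV lines 1, 2 and 3 (6.02 ± 2.11, adjusted p = 0.106), and its neighbour Ctla2b at 5.73 ± 2.01, adjusted p = 0.106. Both SEs pool all 6 groups. In ENSW medium the SD of BRAF, EV and selected arrays was 1.11, 0.40 and 4.38 for Ctla2a and 1.18, 0.27 and 4.12 for Ctla2b. These 2 genes are close relatives, so their probes can share signal. The water channel gene Aqp5 was high in BRAF lines 1 and 3 and near the EV lines in BRAF line 2 (1.58, -5.25 and 4.35 in BRAF lines 1, 2 and 3, against -5.73, -5.23 and -4.44 in EV lines 1, 2 and 3).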
